A study of Mus musculus with 10 samples.

Results

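The 10 genes described here encode the receptor chains through which colon epithelium receives interferons and the cytokines interleukin-22 (IL-22), IL-4, IL-13, IL-6 and related ligands. They were chosen by name as Ifnar1, Ifnar2, Ifngr1, Ifngr2, Ifnlr1, Il10rb, Il22ra1, Il4ra, Il13ra1 and Il6ra, and all 10 were found among the 55487 genes of the deposited table. The study asked how loss of the small GTPase RhoB alters the colon epithelium, and RNA of colon intestinal epithelial cells (IECs) was sequenced from 5 WT and 5 RhoB-/- mice, one library per mouse. All mice were of the C57BL/6J strain, and the labels record no treatment, sex or age. The study describes the RhoB-/- mice as homozygous knockouts of Rhob, not limited to epithelium, so other cells would also lack the gene. The library labelled RhoB-/- replicate 5 had 110.87 TPM of Rhob, and whether it fits that genotype was not tested. The WT animals were purchased C57BL/6J males while the RhoB-/- mice came from another facility, so genotype and source of the mice cannot be told apart. IECs were shaken off the colon after EDTA and DTT incubation, and the methods describe no sort for epithelial cells, so other cells may be present. Values are TPM, a length-adjusted share of each library's RNA, and the number of reads behind a value is unknown. In such bulk samples, more transcript per cell and more cells of a type cannot be told apart.

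Interferon receptors pair a ligand-binding chain with a second chain, and both chains carry a Janus kinase (JAK) that phosphorylates STAT transcription factors once ligand is bound. IFNAR1 and IFNAR2 form the type I interferon receptor, IFNGR1 and IFNGR2 the receptor of interferon-gamma, and IFNLR1 with IL10RB the type III (interferon-lambda) receptor, whose expression is largely restricted to epithelia. IL10RB also pairs with IL22RA1 for IL-22, which drives antimicrobial and repair programmes of the gut epithelium, whereas IL4RA pairs with IL13RA1 for IL-4 and IL-13, the cytokines of goblet cell and anti-helminth responses, and IL6RA with gp130 for IL-6.

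The 10 genes lie on 6 chromosomes of GRCm38 (GENCODE release M21), and 6 of them fall into 2 clusters. On the plus strand of chromosome 16, Ifnar2 (ENSMUSG00000022971, 91372783 to 91405589), Il10rb (ENSMUSG00000022969, 91406164 to 91425834), Ifnar1 (ENSMUSG00000022967, 91485238 to 91507441) and Ifngr2 (ENSMUSG00000022965, 91547072 to 91565623) follow each other, with only 574 bases between Ifnar2 and Il10rb. Ifnlr1 (ENSMUSG00000062157, 135686287 to 135708181) and Il22ra1 (ENSMUSG00000037157, 135728172 to 135752140) are neighbours on the plus strand of chromosome 4, 19990 bases apart. Ifngr1 lies on chromosome 10 (ENSMUSG00000020009, 19591949 to 19610229), Il4ra on chromosome 7 (ENSMUSG00000030748, 125552120 to 125579474) and Il13ra1 on the X chromosome (ENSMUSG00000017057, 36112110 to 36171259), all on the plus strand, and Il6ra on the minus strand of chromosome 3 (ENSMUSG00000027947, 89864059 to 89913196). Promoters of 300 bases (250 before and 50 after the RefSeq start, GRCm38.p6) were matched for 9 of the 10 genes, all but Il10rb, and searched on both strands for letters of STAT-binding elements. The letters GAAA, any 2 bases and GAAA, as in an interferon-stimulated response element, occurred in 3.44% of 32851 promoters and in none of the 9. TTC, any 3 bases and GAA, the letters of a gamma-activated site, which read alike on both strands, occurred in 8.30% of promoters and in those of Ifnar1 and Ifnar2, and the same letters around 4 bases in 6.95% and in that of Ifngr2. No promoter of the 9 held more than 1 of these matches. The 250 bases before the RefSeq start are shown, 5′ to 3′ with the match in capitals, for Ifngr2, Ifnar2 and Il22ra1, all on the plus strand. Ifngr2 (chr16:91546809-91547058) rose in RhoB-/- mice and holds a match. Ifnar2 (chr16:91372533-91372782), of the same chromosome 16 cluster, holds a match and did not pass the test. Il22ra1 (chr4:135727909-135728158) rose and holds none.
Ifngr2: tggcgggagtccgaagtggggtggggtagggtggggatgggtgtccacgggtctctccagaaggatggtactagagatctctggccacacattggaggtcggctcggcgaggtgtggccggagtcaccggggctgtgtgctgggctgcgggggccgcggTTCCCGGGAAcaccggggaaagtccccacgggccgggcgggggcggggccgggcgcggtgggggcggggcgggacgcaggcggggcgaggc
Ifnar2: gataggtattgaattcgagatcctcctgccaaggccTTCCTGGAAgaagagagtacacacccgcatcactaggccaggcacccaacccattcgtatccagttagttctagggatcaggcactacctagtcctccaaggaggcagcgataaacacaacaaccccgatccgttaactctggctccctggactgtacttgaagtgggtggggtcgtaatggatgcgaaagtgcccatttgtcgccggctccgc
Il22ra1: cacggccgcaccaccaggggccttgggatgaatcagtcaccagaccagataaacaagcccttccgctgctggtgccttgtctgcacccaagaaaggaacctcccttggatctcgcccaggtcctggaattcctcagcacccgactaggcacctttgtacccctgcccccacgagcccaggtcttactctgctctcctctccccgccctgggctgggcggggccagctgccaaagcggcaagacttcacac
The matched letters began 91 bases before the start in Ifngr2 and 214 bases before it in Ifnar2, and the match of Ifnar1 began 5 bases before its start and ran across it. A match of letters is a description of the sequence and says nothing of binding. GC content of the 9 promoters ran from 57.0% to 74.3%, against a median of 52.7% over all promoters.

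The share of TPM on mitochondrially encoded genes was 17.5% to 26.5% among WT mice and 10.3% to 22.4% among RhoB-/- mice. Rhob itself was at 312.1 ± 85.5 TPM (SD, n = 5) in WT mice and at 0.09, 0.10, 0.35 and 0.57 TPM in RhoB-/- replicates 1 to 4, whereas the library labelled RhoB-/- replicate 5 had 110.87 TPM. That library was kept under its label, and results are also given without it. Epithelial markers were abundant in every library, with Epcam at 1157 ± 125.9 TPM and 1424 ± 217.4 TPM in the WT and RhoB-/- groups (SD, n = 5 each; log2 fold change 0.29, adjusted p = 0.140, limma). All 8 epithelial markers had log2 fold changes above 0, and Krt20 (1.17), Vil1 (0.65) and Cdx2 (0.42) rose, Cdx2 not without RhoB-/- replicate 5. The part of this shift in the receptor values was not tested. T cell markers were at a far lower level and higher in RhoB-/- mice, with 6 of 7 tested markers called, beside 7.73% of all tested genes. The summed TPM over all 10 listed markers was 8.98 to 22.8 in WT against 30.6 to 42.4 in RhoB-/- libraries. Genes were tested where the mean TPM over all 10 libraries was at least 1. Cd8a and Itgae, both called, met this through their RhoB-/- values (mean TPM 2.94 and 2.12, WT means 0.832 and 0.706).

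Of the 10 receptor genes, 9 had a mean TPM of at least 1 and were tested among 12870 genes with limma on log2(TPM + 1), and 5 of these rose in RhoB-/- mice (Il4ra, Il22ra1, Ifnlr1, Ifngr2 and Ifngr1) at a Benjamini-Hochberg adjusted p below 0.05. None fell at this threshold or at an unadjusted p below 0.05 (limma). Over the full set, 7.73% of tested genes were called higher and 21.2% were called in either direction. The median log2 fold change of the 9 receptors was 0.48, against -0.13 over all tested genes, and 8 of the 9 were above 0, where 34.6% of all tested genes were. By the thresholds the study used, p below 0.05 without adjustment together with a fold change of more than 1.5, Il4ra, Il22ra1 and Ifnlr1 were higher, beside 6.37% of tested genes. Every RhoB-/- library lay above every WT library for Il4ra, Il22ra1, Ifnlr1 and Ifngr2, as it did for 5.97% of tested genes. Without the library labelled RhoB-/- replicate 5, 4 receptors were called, with Ifngr1 lost. The split of all calls depended on the scaling: 995 genes were higher and 1734 lower in the deposited scaling, 1443 and 771 after recentring on the median change, and 1101 and 3729 after mitochondrial genes were removed and TPM rescaled. Il4ra, Il22ra1, Ifnlr1, Ifngr2 and Ifngr1 were higher and called under each of these scalings and under quantile normalization.

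**Figure D1:**
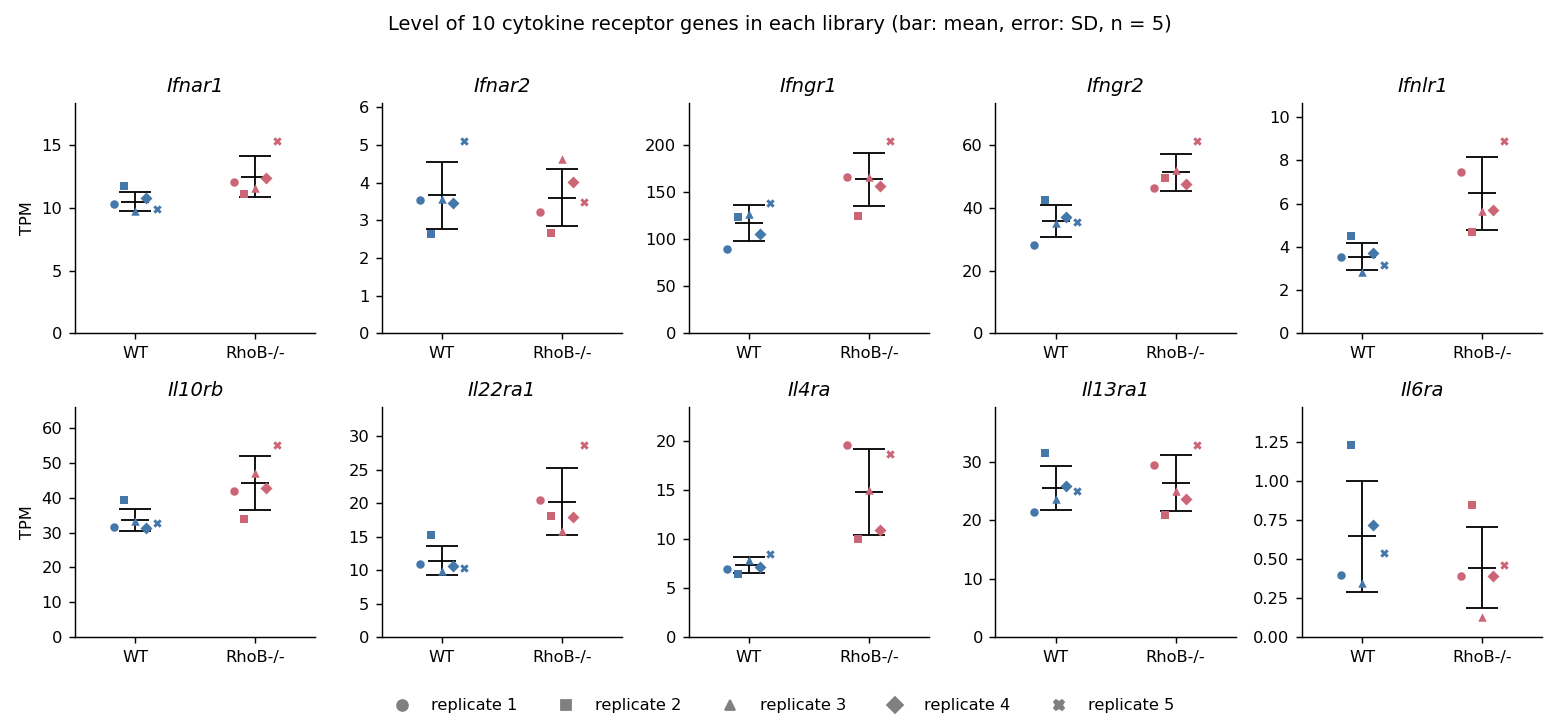
TPM of each of the 10 receptor genes (y axis, linear, starting at 0 and scaled per gene) in the 5 WT and 5 RhoB-/- libraries, with 1 symbol per replicate number, the mean as a bar and the SD as error bars. The groups separate fully for Ifngr2, Ifnlr1, Il22ra1 and Il4ra and overlap for the other 6 genes, and RhoB-/- replicate 5 (cross) is the highest of its group for 7 of the 10.

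The interferon-lambda and IL-22 receptors share IL10RB. The other chain of each, Ifnlr1 and Il22ra1, rose, while Il10rb had a confidence interval above 0 but missed the adjusted threshold. Ifnlr1, the ligand-specific chain for interferon-lambda, was at 3.51, 4.51, 2.84, 3.74 and 3.16 TPM in WT replicates 1 to 5 and at 7.45, 4.69, 5.64, 5.70 and 8.89 TPM in RhoB-/- replicates 1 to 5. The groups did not overlap, though the lowest RhoB-/- library stood just above the highest WT library, both of them replicate 2. Its mean rose from 3.55 ± 0.636 to 6.47 ± 1.68 TPM (SD, n = 5 each), or 0.70 on the log2 scale (95% CI 0.35 to 1.05, adjusted p = 0.0118, limma). Without RhoB-/- replicate 5 the log2 fold change was 0.59 (adjusted p = 0.0273, limma).

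Il22ra1, the ligand-specific chain for IL-22 that in the gut is found on epithelial rather than haematopoietic cells, was at 10.96, 15.20, 9.93, 10.70 and 10.37 TPM in WT libraries and at 20.55, 18.15, 15.89, 17.88 and 28.67 TPM in RhoB-/- libraries. WT replicate 2 stood above the other WT libraries and RhoB-/- replicate 5 above the other RhoB-/- libraries, and still no WT value reached a RhoB-/- value. The mean rose from 11.4 ± 2.14 to 20.2 ± 5.0 TPM (SD, n = 5 each), a log2 fold change of 0.76 (95% CI 0.41 to 1.11, adjusted p = 0.00728, limma). It was 0.63 without RhoB-/- replicate 5 (adjusted p = 0.0120, limma).

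Il10rb, the chain shared by the receptors of IL-22, interferon-lambda and IL-10, was at 31.57, 39.27, 33.30, 31.39 and 32.83 TPM in WT and at 41.96, 33.92, 47.05, 42.78 and 55.05 TPM in RhoB-/- libraries. RhoB-/- replicate 2 fell within the WT range and the other 4 RhoB-/- libraries lay above it. The log2 fold change of 0.37 (95% CI 0.09 to 0.65, adjusted p = 0.0576, limma) did not pass the threshold, with means of 33.7 ± 3.23 and 44.2 ± 7.72 TPM (SD, n = 5 each). Its call depended on the scaling, since Il10rb passed after recentring (0.50, adjusted p = 0.0195, limma), after quantile normalization (0.35, adjusted p = 0.00769) and after removal of mitochondrial genes (0.30, adjusted p = 0.0342). It also passed without RhoB-/- replicate 2 (0.46, adjusted p = 0.0180, limma).

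Both chains of the interferon-gamma receptor rose. Ifngr1, the ligand-binding chain, was the most abundant of the 10 genes in every library, at 90.03, 123.77, 126.74, 105.47 and 138.11 TPM in WT and 165.61, 125.07, 166.09, 156.98 and 203.96 TPM in RhoB-/- libraries. RhoB-/- replicate 2 fell below 2 of the WT libraries, and the other 4 RhoB-/- libraries exceeded all WT libraries. The log2 fold change was 0.48 (95% CI 0.15 to 0.81, adjusted p = 0.0403, limma), with means of 116.8 ± 19.0 and 163.5 ± 28.1 TPM (SD, n = 5 each). Of the 5 calls, only that of Ifngr1 was lost when single libraries were left out. The adjusted p from limma was 0.0834, 0.0689 and 0.0924 without RhoB-/- replicate 1, 4 or 5 and 0.0757, 0.0632 and 0.10 without WT replicate 1, 2 or 4, while the log2 fold change ran from 0.39 to 0.57 over all 10 omissions.

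Ifngr2, the signalling chain of the same receptor, was at 28.19, 42.57, 35.22, 37.24 and 35.33 TPM in WT and at 46.21, 49.66, 52.01, 47.65 and 61.23 TPM in RhoB-/- libraries. All RhoB-/- values were above all WT values, with WT replicate 1 low and RhoB-/- replicate 5 high within their groups. The mean rose from 35.7 ± 5.16 to 51.4 ± 5.94 TPM (SD, n = 5 each), a log2 fold change of 0.52 (95% CI 0.25 to 0.78, adjusted p = 0.0123, limma). The value was 0.45 without RhoB-/- replicate 5 (adjusted p = 0.0310, limma).

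Neither chain of the type I interferon receptor passed the test. Ifnar1 was at 10.35, 11.73, 9.75, 10.82 and 9.94 TPM in WT and at 12.07, 11.11, 11.59, 12.41 and 15.33 TPM in RhoB-/- libraries. RhoB-/- replicates 1, 4 and 5 lay above the WT range and replicates 2 and 3 within it. Its log2 fold change was 0.22 (95% CI -0.0019 to 0.45, adjusted p = 0.139, limma), and it passed after recentring (0.35, adjusted p = 0.0371) and quantile normalization (0.34, adjusted p = 0.0114). Ifnar2, which encodes the high-affinity binding chain and also a soluble form, was at 3.54, 2.65, 3.57, 3.45 and 5.10 TPM in WT and at 3.22, 2.66, 4.63, 4.03 and 3.49 TPM in RhoB-/- libraries. The RhoB-/- values lay within the WT range, and WT replicate 5 was the highest of all 10 libraries. The log2 fold change was -0.01 (95% CI -0.36 to 0.34, adjusted p = 0.962, limma), so the interval still allows a change of either sign about as large as that of Il10rb, and the sign itself changed with the scaling. The deposited values sum the annotated transcripts of a gene, so membrane-bound and soluble forms were not separated.

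Of the chains of the IL-4 and IL-13 receptor, Il4ra had the largest log2 fold change of the 9 tested genes and Il13ra1 did not pass. Il4ra, the chain that binds IL-4 and signals through STAT6, was at 6.95, 6.43, 7.86, 7.19 and 8.45 TPM in WT and at 19.55, 9.98, 15.00, 10.89 and 18.62 TPM in RhoB-/- libraries. The groups did not overlap, and the RhoB-/- values spread widely, with replicates 2 and 4 nearest to the WT range and replicates 1 and 5 highest. The mean rose from 7.38 ± 0.790 to 14.8 ± 4.35 TPM (SD, n = 5 each), a 2.01-fold ratio of means and a log2 fold change of 0.88 (95% CI 0.49 to 1.26, adjusted p = 0.00557, limma). Without RhoB-/- replicate 5 it was 0.79 (adjusted p = 0.0160, limma).

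Il13ra1, the chain that completes the type II IL-4 receptor and binds IL-13, was at 21.40, 31.52, 23.60, 25.95 and 24.99 TPM in WT and at 29.54, 20.89, 25.05, 23.56 and 32.84 TPM in RhoB-/- libraries. The groups overlapped throughout, and replicate 2 was the highest WT and the lowest RhoB-/- library. Its log2 fold change was 0.04 (95% CI -0.26 to 0.34, adjusted p = 0.854, limma), and removal of mitochondrial genes turned the sign (-0.03). Il6ra, the ligand-binding chain for IL-6, was below the TPM filter, at 0.40, 1.23, 0.35, 0.72 and 0.54 TPM in WT and at 0.39, 0.85, 0.13, 0.39 and 0.46 TPM in RhoB-/- libraries. Replicate 2 was the highest in both groups, and the means of 0.648 ± 0.356 and 0.444 ± 0.260 TPM (SD, n = 5 each) differed by less than the spread between mice (exact permutation test, two-sided p = 0.333).

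**Figure D2:**
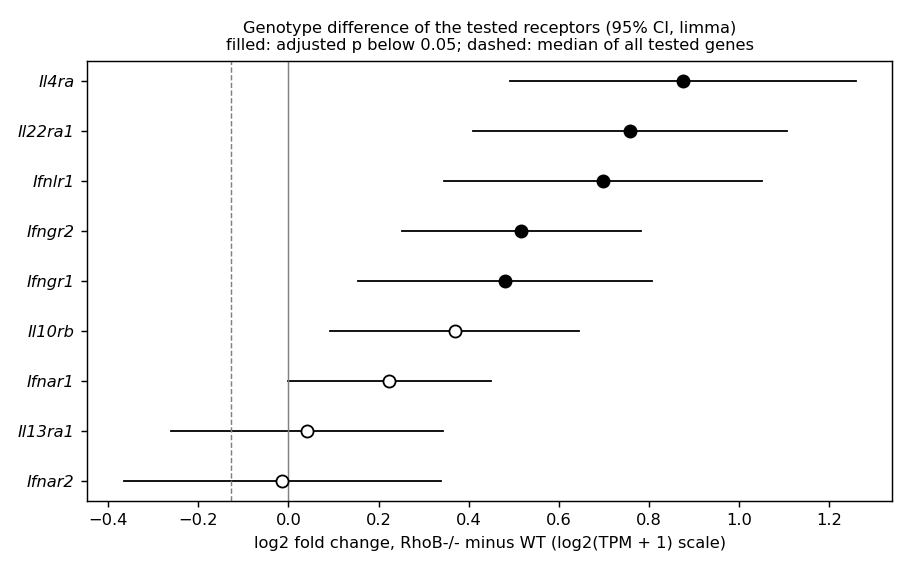
Log2 fold change of the 9 tested receptors (x axis, RhoB-/- minus WT on the log2(TPM + 1) scale) with 95% confidence intervals from limma, filled where the adjusted p is below 0.05, and the median of all tested genes as a dashed line at -0.13. Il4ra (0.88), Il22ra1 (0.76), Ifnlr1 (0.70), Ifngr2 (0.52) and Ifngr1 (0.48) are filled, and the intervals of Ifnar1, Il13ra1 and Ifnar2 span 0, that of Ifnar1 barely.

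The chains of each receptor were compared as ratios within a library, by exact permutation of the genotype labels (two-sided), with Benjamini-Hochberg adjustment over the 6 pairs. Tests were run on log2 ratios of TPM + 1, in which the added 1 moves the ratios of low chains toward 1. The smallest p that this design can give is 0.00794.

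The ratio of Il4ra to Il13ra1 was 0.325, 0.204, 0.333, 0.277 and 0.338 in WT replicates 1 to 5 and 0.662, 0.478, 0.599, 0.462 and 0.567 in RhoB-/- replicates 1 to 5. All RhoB-/- ratios lay above all WT ratios. The mean ratio went from 0.295 ± 0.0566 to 0.554 ± 0.0837 (SD, n = 5 each), a log2 difference of 0.83 (SE 0.16, exact permutation test, two-sided p = 0.00794, adjusted p = 0.0476). Il13ra1 therefore remained the more abundant chain in every library, by a smaller margin in RhoB-/- mice.

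The ratio of Ifnlr1 to Il10rb was 0.105 ± 0.0141 in WT and 0.146 ± 0.0231 in RhoB-/- mice (SD, n = 5 each), with 4 of 5 RhoB-/- libraries above every WT library (log2 difference 0.33, SE 0.11, exact permutation p = 0.0238, adjusted p = 0.0635). That of Il22ra1 to Il10rb was 0.338 ± 0.0338 and 0.460 ± 0.0821, again with 4 of 5 above (log2 difference 0.39, SE 0.13, exact permutation p = 0.0317, adjusted p = 0.0635). Both missed the threshold after adjustment, they share Il10rb, and both passed at an adjusted p of 0.0159 without RhoB-/- replicate 3 (exact permutation test). With a pseudocount of 0.1 in place of 1, the ratio of Ifnlr1 to Il10rb passed as well (0.45, adjusted exact permutation p = 0.0476).

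The 2 chains of the interferon-gamma receptor stood in a ratio of 3.29 ± 0.459 in WT and 3.18 ± 0.399 in RhoB-/- mice (SD, n = 5 each), a log2 difference of -0.04 (SE 0.12, exact permutation p = 0.802, adjusted p = 0.802). Ifnar1 exceeded Ifnar2 by 3.03 ± 0.899 and 3.58 ± 0.783 times, a log2 difference of 0.24 (SE 0.20, exact permutation p = 0.278, adjusted p = 0.333). The ratio of Il6ra to Il6st, the gene of gp130, was 0.133 ± 0.0546 and 0.0875 ± 0.0592, a log2 difference of -0.29 (SE 0.17, exact permutation p = 0.119, adjusted p = 0.179) that was -0.61 with a pseudocount of 0.1 (adjusted exact permutation p = 0.202). These 3 pairs did not pass, which does not show that their ratios were equal.

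**Figure D3:**
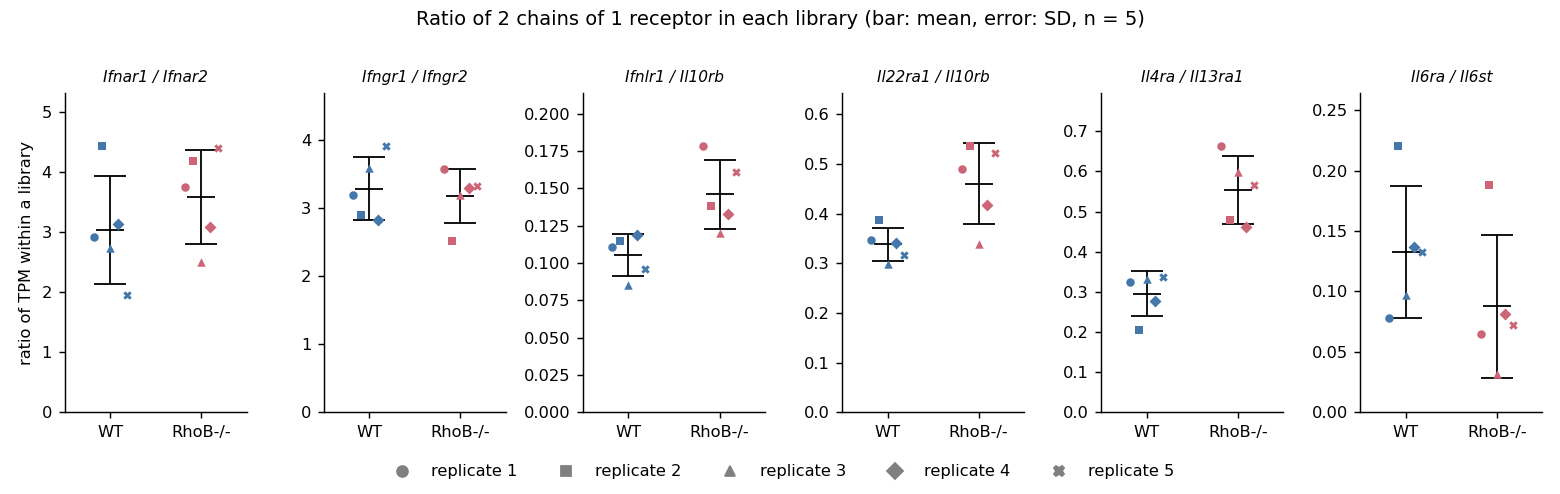
TPM ratio of the chains of 1 receptor within each library (y axis, linear, starting at 0 and scaled per pair) in WT and RhoB-/- mice for 6 pairs, with 1 symbol per replicate number, the mean as a bar and the SD as error bars. The ratio of Il4ra to Il13ra1 separates the genotypes, from at most 0.338 in WT to at least 0.462 in RhoB-/- mice, and the other 5 pairs overlap.

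In WT mice the order of mean TPM was Ifngr1, Ifngr2, Il10rb, Il13ra1, Il22ra1, Ifnar1, Il4ra, Ifnar2, Ifnlr1 and Il6ra. Steps larger than the spread between mice separated Ifngr1 from Ifngr2 (3.27-fold), Il13ra1 from Il22ra1 (2.23-fold), Ifnar1 from Il4ra (1.43-fold), Il4ra from Ifnar2 (2.01-fold) and Ifnlr1 from Il6ra (5.48-fold), in the sense that the ranges of these neighbours did not overlap. Ranges did overlap between Ifngr2 and Il10rb, Il10rb and Il13ra1, Il22ra1 and Ifnar1, and Ifnar2 and Ifnlr1. In RhoB-/- mice 2 pairs of genes exchanged places: Il4ra stood above Ifnar1, with overlapping ranges and the higher value in 3 of 5 libraries, and Ifnlr1 stood above Ifnar2 in all 5 libraries without overlap. The first 5 genes kept their order. Ifngr1 alone made up 46.9% of the summed TPM of the 10 genes in WT and 47.6% in RhoB-/- mice.

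The summed TPM of the 10 genes was 248.9 ± 28.4 in WT and 343.5 ± 55.0 in RhoB-/- mice (SD, n = 5 each). Single libraries ran high or low for many of the genes at once. WT replicate 2 was the highest of its group for 7 of the 10 genes and WT replicate 5 for the remaining 3, and among RhoB-/- libraries replicate 5 was the highest and replicate 2 the lowest for 7 genes each. The mitochondrial share of TPM was 12.1% in RhoB-/- replicate 5 and 22.4% in RhoB-/- replicate 2, and was 26.5% in WT replicate 1, the library with the lowest summed receptor TPM (206.9). The lowest share, 10.3%, was that of RhoB-/- replicate 3, whose summed receptor TPM of 343.1 was the median of its group. With mitochondrial genes removed, the log2 fold changes of the 5 called receptors stayed past the threshold. Within a genotype, the SD of log2(TPM + 1) was lowest for Ifnar1 (0.14) and highest for Il4ra (0.31), with a median of 0.23 over all tested genes, and 4 of the 9 tested receptors were below that median.

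By mean absolute difference of standardised log2(TPM + 1) over the 10 libraries, the 5 tested genes most like Il4ra were Duoxa1 (0.11 SD units), Fam78a (0.19), Clca4b (0.19), Cd47 (0.20) and Pde11a (0.21). Duoxa1, the maturation factor of the oxidase DUOX1, had means of 0.350 ± 0.170 and 1.83 ± 0.772 TPM in WT and RhoB-/- mice, and Cd47, the surface protein that signals to phagocytes not to engulf a cell, of 21.7 ± 1.85 and 35.6 ± 6.67 TPM (SD, n = 5 each). Among the other receptors Ifnlr1 (0.41) and Ifngr1 (0.44) were nearest to Il4ra and Ifnar2 (1.04) was farthest. The libraries and the genotype split are common to all these genes, and the measure is a description.

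Transcripts of the ligands were scarce. None of 18 listed ligand genes reached a mean TPM of 1. They were interferons, with only some of the Ifna genes, and cytokines of these receptors or related to them. Of the 18, 11 were at 0 in all libraries, among them Ifnb1, Ifnl3 and Il13. Their summed TPM was 0.63 to 1.42 in WT and 0.44 to 2.28 in RhoB-/- libraries. Ifng, the single ligand of IFNGR1 and IFNGR2, was at 0.678 ± 0.397 and 0.526 ± 0.378 TPM (SD, n = 5 each; exact permutation test, two-sided p = 0.540). Ifnk, a type I interferon, was listed at 0 in all WT libraries and at 0.44, 0.10, 0.00, 0.22 and 0.13 TPM in RhoB-/- replicates 1 to 5 (exact permutation test, two-sided p = 0.0476, not adjusted over the 18 ligands).

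Of 7 partner and decoy chains of the 10 receptors, 3 were tested and 1 rose, beside 7.73% of all tested genes. Il2rg, the common gamma chain that pairs with IL4RA on haematopoietic cells, went from 1.14 ± 0.422 to 3.07 ± 0.996 TPM (SD, n = 5 each), which is 0.92 on the log2 scale (adjusted p = 0.0100, limma). The T cell marker Cd3e moved over a like range, from 1.56 ± 0.602 to 3.52 ± 0.873 TPM, and Ptprc, a marker of all leukocytes, from 1.97 ± 0.571 to 5.92 ± 2.28 TPM. The part of these cells in Il2rg, Il4ra and the other receptors was not tested. Il6st, the gene of gp130, had 4.72 ± 0.841 and 5.17 ± 1.01 TPM (log2 fold change 0.11, adjusted p = 0.625, limma), and Il20rb, a chain that pairs with IL22RA1 for IL-20 and IL-24, 0.954 ± 0.182 and 1.43 ± 0.567 TPM (0.29, adjusted p = 0.325, limma). Il13ra2, the IL-13 decoy, and Il20ra were listed at 0.

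Among 26 other cytokine receptor genes, 14 were tested, 3 rose and 3 fell. Over all tested genes, 7.73% were called higher and 1734 of 12870 lower. The median log2 fold change of the 14 was 0.27 against 0.48 for the 9 receptors above. The TNF receptors Tnfrsf1a (0.57, adjusted p = 0.00621, limma) and Tnfrsf1b (0.86, adjusted p = 0.00694) and the lymphocyte chain Il2rb (0.64, adjusted p = 0.0221) rose. Il2rb passed the filter through its RhoB-/- values (mean TPM 1.54, WT mean 0.652). Il17re, a chain of the IL-17C receptor (-1.0, adjusted p = 0.00891, limma), Il1r1, the IL-1 receptor (-0.79, adjusted p = 0.0192), and Il11ra1, the IL-11 receptor (-0.48, adjusted p = 0.0493), fell. Il11ra1 was not called without RhoB-/- replicate 5. Below the filter, mean TPM was lower in RhoB-/- mice for Il1rl2 (1.18 in WT, 0.184 in RhoB-/-) and Lifr (1.47, 0.294). Exact permutation p was 0.00794 and 0.0397, not adjusted. It was higher for Il27ra, Il12rb1, Il7r and Osmr, with RhoB-/- means of 0.276 to 0.420 TPM (exact permutation p = 0.00794 to 0.0317, not adjusted). No other untested gene of the list had an exact permutation p below 0.05.

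Downstream of the receptors, JAK and STAT pathway genes differed in whether they passed. Stat2, a transducer of type I and III interferon, rose from 12.9 ± 2.82 to 55.4 ± 10.6 TPM, and Irf9, its DNA-binding partner, from 11.0 ± 1.31 to 34.0 ± 3.65 TPM (SD, n = 5 each), with log2 fold changes of 2.03 (adjusted p = 6.53e-06) and 1.55 (1.97e-06) in limma. Jak2, the kinase carried by IFNGR2, rose by 0.52 (adjusted p = 0.0195, limma). Jak1, carried by IFNGR1, IFNLR1, IL22RA1 and IL4RA, and Tyk2, carried by IFNAR1 and IL10RB, had log2 fold changes of 0.06 (adjusted p = 0.718) and -0.04 (adjusted p = 0.866). Stat3, the main IL-22 and IL-6 transducer, had 0.17 (adjusted p = 0.393), Stat6, that of IL-4 and IL-13, 0.28 (adjusted p = 0.167), Jak3 0.11 (adjusted p = 0.591) and Stat5b -0.14 (adjusted p = 0.468). Stat5a fell (-0.50, adjusted p = 0.0441, limma) with all libraries but not without RhoB-/- replicate 5, and Stat4 was below the filter, at 0.244 ± 0.101 and 0.490 ± 0.106 TPM (SD, n = 5 each).

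Of 17 tested inhibitors of these receptors, 2 rose and 1 fell, beside 21.2% of all tested genes called in either direction. Usp18, which binds IFNAR2 and blocks signalling from it, rose from 1.36 ± 0.519 to 44.6 ± 13.1 TPM (SD, n = 5 each; log2 fold change 4.25, adjusted p = 1.14e-07, limma), while Ifnar2 itself stayed at 3.66 ± 0.889 and 3.61 ± 0.756 TPM. Socs1, a JAK inhibitor, rose by 0.89 (adjusted p = 0.00879, limma), and Pias2, a SUMO ligase of the STAT inhibitor family, fell (-0.40, adjusted p = 0.0263). Among 4 genes of receptor turnover, 1 fell, beside 1734 of 12870 tested genes. It was Btrc, an F-box protein that marks IFNAR1 for degradation (-0.46, adjusted p = 0.0207, limma). Without RhoB-/- replicate 5, Pias2 was no longer called, and Usp18, Socs1 and Btrc were.

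Lists of known target genes of the receptors differed in their counts. All 16 listed type I and III interferon targets were tested and rose, with a median log2 fold change of 4.31. Of 15 tested interferon-gamma targets 13 rose, with a median of 2.24, beside 7.73% of all tested genes. The lists were not built to separate the types of interferon. The filter takes the mean of all 10 libraries, and genes such as Ifi44 and Gbp3 passed it through their RhoB-/- values. Their WT means were 0.316 and 0.536 TPM. Usp18 is both an inhibitor and a target here. For Ifi27l2a the WT mean was 1.47 ± 0.797 TPM and the RhoB-/- mean 218.4 ± 64.9 TPM, and for Irgm2, an interferon-gamma-induced GTPase, 4.16 ± 1.15 and 28.9 ± 2.74 TPM (SD, n = 5 each). Cxcl10, a chemokine gene of the interferon-gamma list, had 6.33 ± 3.60 and 3.55 ± 0.573 TPM (-0.56, adjusted p = 0.159, limma), and Ciita, the regulator of MHC class II genes, 1.25 (adjusted p = 0.0885).

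Among 12 tested IL-22 targets, 7 rose and 1 fell, and the median was 1.47. For this and the next 2 lists, the shares over all tested genes were 7.73% called higher and 21.2% in either direction. Duox2, a hydrogen peroxide-forming oxidase, rose from 22.3 ± 5.30 to 135.8 ± 55.5 TPM (log2 fold change 2.49, adjusted p = 5.02e-05, limma), Reg3b, an antimicrobial lectin, by 2.25 (adjusted p = 0.0403), and Il18 fell (-0.91, adjusted p = 0.00784). The related lectin Reg3g had 1.28 (adjusted p = 0.209). Of 5 tested IL-4 and IL-13 targets, 3 rose: the goblet cell genes Retnlb (3.96, adjusted p = 2.91e-05, limma) and Clca1 (1.87, adjusted p = 0.00164) and Ang4 (4.53, adjusted p = 0.00112), an antimicrobial ribonuclease of a multigene family whose members can share reads. Of 7 tested IL-6 targets, 1 rose (Steap4, 1.43, adjusted p = 9.34e-04, limma). Steap4 passed the filter through its RhoB-/- values (mean TPM 4.07, WT mean 0.858). Without RhoB-/- replicate 5 the counts that rose were 16, 12, 6, 3 and 1 for the interferon type I and III, interferon-gamma, IL-22, IL-4 and IL-13, and IL-6 lists, with Irf1 and Reg3b lost.

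**Figure D4:**
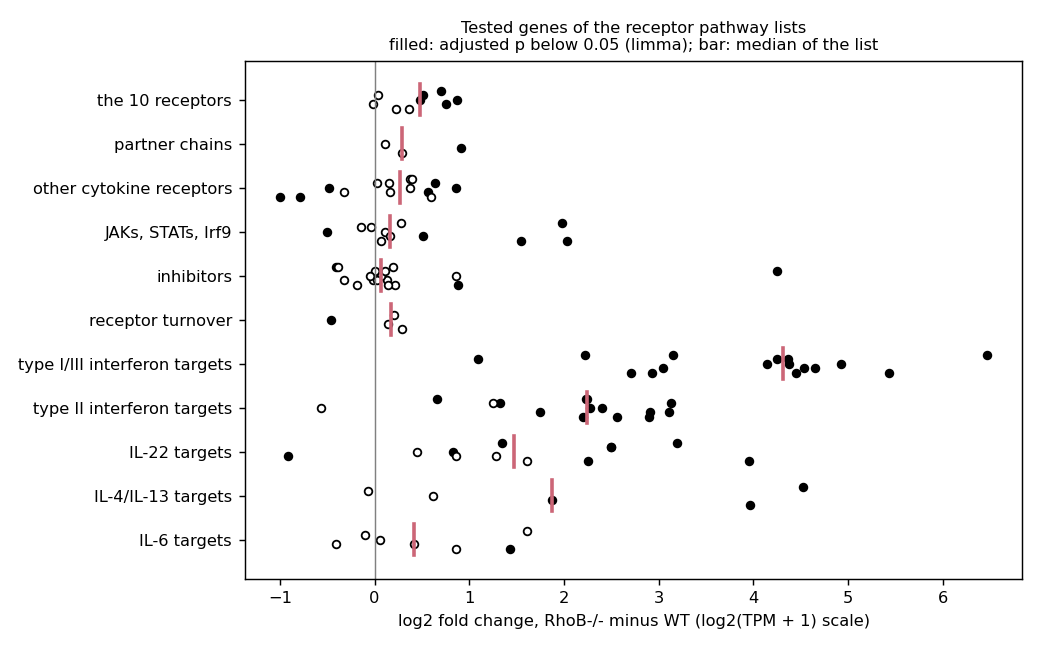
Log2 fold change (x axis, RhoB-/- minus WT on the log2(TPM + 1) scale) of every tested gene of 11 pathway lists, 1 row per list, with each gene a circle that is filled where the adjusted p from limma is below 0.05 and the list's median as a bar. The receptors lie between -0.01 and 0.88 with a median of 0.48, while the type I and III interferon targets have a median of 4.31.

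Some markers of the cells that make up the epithelium also differed. Of the mature colonocyte markers, 3 of 7 rose (Ceacam20, Car4 and Aqp8), beside 7.73% of all tested genes. Guca2a and Slc37a2 of that list had log2 fold changes below 0 (-0.03 and -0.17) and were not called. Of the 7 crypt base and proliferation markers 2 fell (Smoc2 and Mki67), beside 1734 of 12870 tested genes. Mki67 was not called without RhoB-/- replicate 5 (adjusted p = 0.0721, limma). Ascl2 of the same list had a log2 fold change above 0 (0.20) and was not called. Stroma markers summed to 4.27 to 5.55 TPM in WT and 6.71 to 36.7 TPM in RhoB-/- libraries, with Dcn called among 2 tested, and myeloid markers to 17.8 to 30.8 and 23.0 to 47.5 TPM, with Cd68 called among 4 tested. Cd68 passed the filter through its RhoB-/- values (mean TPM 3.74, WT mean 0.988). B and plasma cell markers summed to 0.18 to 1.01 TPM in WT and 0.99 to 14.1 TPM in RhoB-/- libraries, and none passed the filter. The highest stroma and B cell sums were both those of RhoB-/- replicate 5, and the next highest were 16.3 TPM in RhoB-/- replicate 4 and 6.04 TPM in RhoB-/- replicate 3. Dcn (24.51 TPM) and Col3a1 (8.22 TPM) made up most of the stroma sum of RhoB-/- replicate 5. Mean TPM was lower in RhoB-/- than in WT mice for Acta2, Myh11 and Pdgfra and higher for Col1a1 and Col1a2, all below 1. No listed marker of these cell types was at 0 in all libraries. Their part in the receptor values was not tested.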

How the data were processed

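IECs of 5 WT and 5 RhoB-/- mice were grouped by genotype and numbered as in the labels. The authors used SeqPrep and Sickle for trimming, HISAT2 in orientation mode for alignment, StringTie for assembly and RSEM for gene quantification, with GRCm38.p6 and edgeR also named in the submitters' processing notes. The deposited values are TPM. They are relative within a library and keep no depth, so counting error is unknown and a count-based test could not be run. All errors are spread between mice.

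The 12870 of 55487 genes whose mean TPM reached 1 were fitted with limma 3.58.1 in R 4.3.3 (lmFit, eBayes with trend) on log2(TPM + 1), with Benjamini-Hochberg adjustment and calls at an adjusted p below 0.05. Fold changes on this scale understate those of low genes. Genes under the filter and chain ratios were compared by exact permutation, two-sided. Both procedures were tested on simulated data. Columns used were those of the 10 libraries, and the authors' gene identifiers were matched to GENCODE release M21.

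The 10 receptors and all gene lists were chosen with earlier results of these data known, so their counts are descriptions and no list was tested as a set. Genes named are the receptors, Rhob, list genes past the adjusted threshold (up to 6 a list), partner chains, kinases and STATs, and the 5 genes nearest to Il4ra. Cxcl10, Ciita, Reg3g, Ifnb1, Ifnl3, Il13, Ifng, Ifnk, Epcam, Ptprc and Cd3e were named after their values were seen. So were Guca2a, Slc37a2, Ascl2, Il1rl2, Lifr, Il27ra, Il12rb1, Il7r, Osmr, Col3a1, Col1a1, Col1a2, Acta2, Myh11 and Pdgfra. Alternatives were a pseudocount of 0.1, no filter or a mean TPM of at least 5, recentring, quantile normalization, removal of mitochondrial genes, a replicate block, no trend, the study's thresholds, and each library left out. A gene that meets the naming rule is not reported here, and protein sequences were not used.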

Additional observations from a re-analysis of the deposited data

Results flagged for a closer look

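In 34 groups of 5 libraries (the 10 receptors, Rhob and the chain ratios, each genotype apart), 3 values stood far from the rest of their group by Dixon's 95% criterion, which chance meets in about 1 in 20 groups, or 1.7 of 34. The Il10rb TPM of 39.27 in WT replicate 2 stood above the other WT libraries, which ran from 31.39 to 33.30. In the same library the Il22ra1 TPM of 15.20 stood above values of 9.93 to 10.96. Both lie on the side of the RhoB-/- libraries, and the log2 fold change of Il22ra1 stayed past the threshold without WT replicate 2. The Rhob TPM of 110.87 in RhoB-/- replicate 5 stood above 0.09 to 0.57 in the other RhoB-/- libraries, against 312.1 ± 85.5 (SD, n = 5) in WT mice.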

How the results depend on the processing

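Of 161 log2 fold changes of single receptors computed under 18 alternatives, 147 kept their side of the threshold, 8 lost it (all of Ifngr1), 6 gained it (Il10rb and Ifnar1) and none that was called changed sign. Il4ra, Il22ra1, Ifnlr1 and Ifngr2 stayed called in all 18, with adjusted p values from limma of at most 0.0208, 0.0229, 0.0352 and 0.0310. The count of receptors called was 3 under the study's thresholds, which require a larger change, 7 after recentring and after quantile normalization, and 4 to 6 with each library left out. Genes called numbered 4830 without mitochondrial genes, against 2729, and 1593 to 3897 with each library left out, with 1791 without RhoB-/- replicate 1 and 1593 without WT replicate 4. The number of chain pairs called was 2 with a pseudocount of 0.1, against 1, and 1 to 3 with each library left out, 3 of them without RhoB-/- replicate 3. The cause of these shifts was not tested.

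Replicate numbers are shared by both genotypes, but the mice are different animals and same-numbered libraries did not deviate together (correlations of -0.087 to 0.072). With a replicate block 1895 genes and 4 receptors were called, Ifngr1 not among them (adjusted p = 0.0530, limma). For chain ratios, a block leaves 5 pairs and a smallest exact p of 0.0625, so no pair could pass. No filter left Ifngr1 at an adjusted p of 0.0782 over 28114 genes. Depth is unknown, so low values such as Il6ra carry an unknown counting error.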
